A study of Mus musculus with 4 samples.

Results

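Slc6a2, the noradrenaline transporter gene, is described here with the genes that degrade catecholamines (Maoa and Maob) and the adrenergic receptor genes of gland and fat pad (Adrb1, Adrb3, Adra1a and Adra2a). Probes were taken as members when their accession mapped to 1 of these 7 genes through mouse RefSeq. That gave 10 probes for 6 genes, of 41174 probes and 18952 named genes in all. No probe matched Adrb3, which is not analysed here. Slc6a2 was chosen because its signal differed between the groups, so the differences of these genes between the groups are given as a description, with no test.

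Total RNA came from the mammary glands of female mice, 13 weeks old and by their labels pre-neoplastic, that carried the Δ16HER2 transgene, which encodes a splice variant of the HER2 receptor tyrosine kinase. All 4 samples share that transgene, and no sample without it was analysed here. They divide into 2 samples labelled WT for stathmin (WT 1 and WT 2) and 2 labelled STM KO, the stathmin knockout (knockout 1 and knockout 2). The labels name neither the promoter of the transgene nor the deleted part of the stathmin gene, and do not say that each sample came from its own animal.

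Noradrenaline is released by sympathetic nerve endings, which in this tissue reach blood vessels and the fat pad. The transporter encoded by Slc6a2 carries it back into the ending, and the monoamine oxidases of the outer mitochondrial membrane break it down. What is not cleared acts on receptors: β receptors raise cyclic AMP through the G protein Gs and drive lipolysis in fat cells, α2 receptors lower cyclic AMP through Gi, and α1 receptors act through Gq on calcium.

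Each sample was hybridised with Cy3 label to 1 array, and all 4 arrays lay on 1 slide that was scanned once. The WT samples lay at the first positions of the slide, so position and genotype cannot be told apart. Between 54.7% and 66.2% of spots were well above background, the scanner software's call that a spot exceeds its local background, and no spot was saturated. Pearson correlations between arrays ran from 0.963 to 0.975 across probes, which are not independent replicates. Of the 2 Stmn1 probes, the brighter was well above background on every array, with signals of 9222 and 1740 on the WT arrays and 6865 and 1621 on the arrays labelled knockout. The dimmer gave 87.6 and 13.8 against 5.57 and 4.84, and was well above background on WT 1 only. The brighter probe does not separate the labelled genotypes, its position relative to the deleted part is unknown here, and groups are therefore named by their labels throughout. Gland and fat were both present: all 10 luminal epithelium markers were well above background on every array, as were 9 of the 10 white adipocyte markers. The tenth, Cfd, has no value on WT 1, where its spot carried an outlier flag. B cell markers summed to 22.8 times the array's 75th percentile on knockout 2 and to between 0.540 and 0.745 times on the other arrays, so values of the members without knockout 2 are given below.

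Slc6a2 was read by 1 probe (NM_009209), printed once per array. Its processed signal, the background-subtracted brightness, was 37.8 and 21.2 on the WT arrays (WT 1 first), 3.84 on knockout 1 and 2.53 on knockout 2. Both WT spots were well above background and neither spot on the arrays labelled knockout was. The groups therefore did not overlap, and the reading on the arrays labelled knockout is a bound and not a level.

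The 153 negative-control spots of each array, which match no mouse transcript, give the scale of these readings. Their median signal was 2.79 and 2.81 on the WT arrays, 2.87 on knockout 1 and 1.96 on knockout 2. None of them was brighter than Slc6a2 on WT 1 and 1 was on WT 2, whereas 35 were brighter on knockout 1 and 44 on knockout 2. The scanner software's error estimate for the Slc6a2 spot was 5.42 on WT 1 and 4.07 on WT 2. On the arrays labelled knockout that error, 3.82 and 2.52, was as large as the signal. Local background was similar around the spot, at 21 on both WT arrays, 20 on knockout 1 and 17 on knockout 2, while the median pixel of the spot was 69, 52, 34 and 33 in the same order of arrays.

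**Figure D1:**
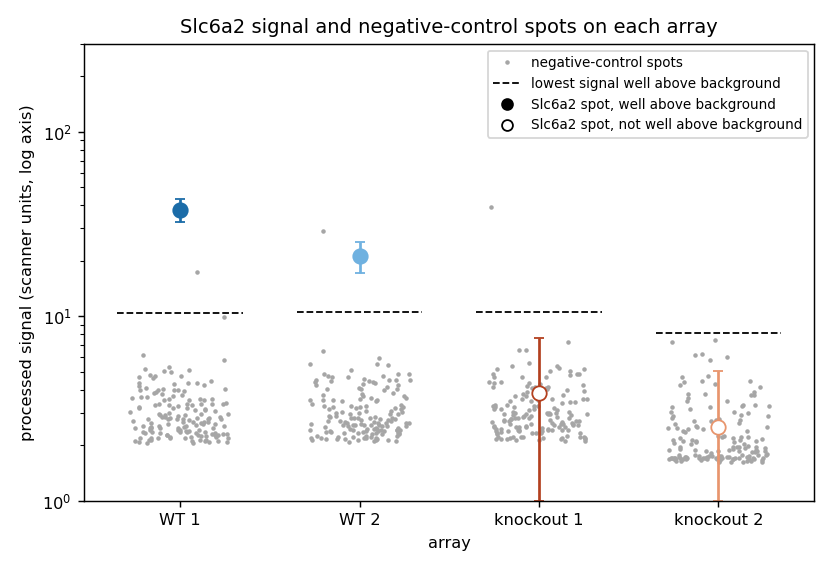
Processed signal (scanner units, log axis) of the Slc6a2 spot on each of the 4 arrays, with the scanner software's error as a bar (its lower end is clipped at the axis on the knockout arrays), beside the 153 negative-control spots in grey. The WT spots, at 37.8 and 21.2, lie above the dashed line of the lowest signal called well above background, and the knockout spots, at 3.84 and 2.53, lie among the negative controls.

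On the scale used below, log2 of the signal minus log2 of the array's 75th percentile, the WT arrays read -2.34 and -2.76 for Slc6a2, knockout 1 read -6.25 and knockout 2 read -5.98. The WT mean was -2.55 ± 0.30 (SD, n = 2) and the mean of the arrays labelled knockout -6.12 ± 0.19 (SD, n = 2), a difference of -3.56 between readings of which 2 are not above background. Set against the lowest signal that counts as well above background on each array, Slc6a2 was at least 3.98-fold lower on the arrays labelled knockout. That bound ran from 3.35-fold without knockout 1 to 4.72-fold without knockout 2. It leaves out the error of the WT readings and rests on a floor that is not strict for every spot. On knockout 1 the floor was 10.5, yet a dim Adrb1 spot at 13.2 and the Slc22a3 probe at 23.8 were not called well above background. The latter signal is higher than that of Slc6a2 on WT 2, at 21.2. The bound is therefore no strict minimum, and the same holds for the bounds of other genes below. With normexp background correction and an offset of 50, which pulls dim signals together by construction, the difference was -0.75.

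Few probes had flags of this kind. Well above background on both WT arrays and on neither array labelled knockout were 43 of 41174 probes, or 0.104%, and the reverse held for 495, or 1.2%. Among 21 named genes whose brightest probe had these flags, Slc6a2 had the third largest bound, and the median bound was 2.59-fold. Slc6a2 was picked for this contrast, so its place in that order is part of the choice and supports nothing.

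The 5 genes closest to Slc6a2 in pattern were sought among those 21, by the root mean square distance of levels centred on each gene's mean over the 4 arrays. The closest was Gabra4, a subunit of the GABA-A receptor, at a distance of 0.67. It read -2.38 and -1.89 on the WT arrays and -5.90 and -4.22 on the arrays labelled knockout, and was at least 5.18-fold lower on the latter. Cldn2, a claudin of tight junctions, followed at 0.71, and Wdr72, a protein needed for enamel formation, at 0.77. Wap, the whey acidic protein of milk, stood at 0.80 and the kinase gene Sgk2 at 0.87. Their bounds were 3.66-fold for Cldn2, 3.57-fold for Wdr72, 4.24-fold for Wap and 2.59-fold for Sgk2. With 4 arrays, a like pattern amounts to little more than the same order of the groups, which the shared flags had already set.

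**Figure D2:**
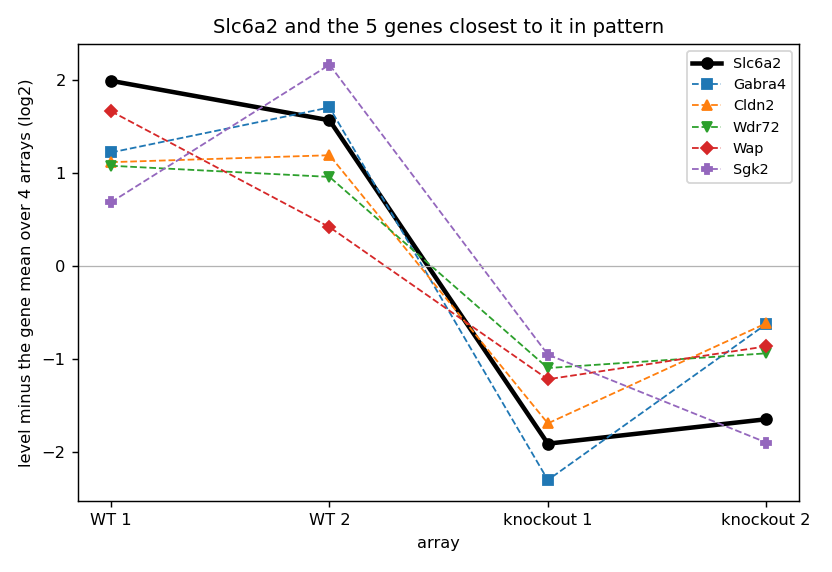
Level minus the gene's mean over the 4 arrays (log2) for Slc6a2 and the 5 genes closest to it, by array; lines join the points of 1 gene and carry no order among replicates. All 6 genes lie above their mean on both WT arrays and below it on both knockout arrays, and readings on the knockout arrays are not above background.

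Summed levels of markers of several tissues moved with this difference, and their part in it was not tested. All 6 milk genes lay lower on both arrays labelled knockout than on both WT arrays, as did 17.7% of all tested genes. The milk genes had a summed level of 169 and 42.6 times the 75th percentile on the WT arrays and 7.16 and 6.55 on the others. The sums for 6 mast cell markers were 10.1 and 10.3 against 6.35 and 5.40, and those for 6 fibroblast markers 369 and 357 against 246 and 243. Among tested genes, 4 of 4 mast cell and 5 of 6 fibroblast markers lay lower without overlap. The 9 smooth muscle and pericyte markers summed to 157 and 139 against 125 and 122, and the 7 endothelial markers to 39.2 and 38.6 against 37.2 and 30.2. Only 4 of those 9 and 2 of those 7 lay lower without overlap. Their median differences of -0.25 and -0.24 were -0.06 and -0.04 with each array centred on its median. Without knockout 2 these medians were -0.05 and -0.02, and without knockout 1 they were -0.40 and -0.35. The 8 brown adipocyte markers summed to 330 and 291 against 228 and 287, but 4 of their differences were above 0 and 4 below, with a median of -0.05, and Prdm16 had 1.66 with no overlap. Every one of these marker genes except Ms4a2, of mast cells, was well above background on at least 1 array. In bulk tissue, fewer cells of a type and less RNA per cell cannot be told apart.

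Genes of sympathetic neurons, where Slc6a2 is known to be expressed, were read in part. Of 18 neuron markers, 10 were well above background on no array, taking a probe as such where most of its spots were. They include Th, the first enzyme of catecholamine synthesis, and Dbh, which makes noradrenaline from dopamine. The Th probe was printed at 10 spots per array, of which 1 was well above background on WT 1, none on WT 2 or knockout 1 and 4 on knockout 2. Summed over the 18 markers, the level was 1.52 and 1.29 on the WT arrays and 0.875 and 1.73 on the arrays labelled knockout, so the groups overlapped. Nerve cell bodies lie outside the gland, and the arrays read RNA in the gland alone. The 10 Schwann cell markers also overlapped, with sums of 59.7 and 64.6 against 64.1 and 60.4. Macrophages that sit along sympathetic fibres are known to carry Slc6a2 and Maoa, and their part here was not tested. The 9 macrophage markers with a probe, of 10 listed, summed to 28.5 and 49.6 on the WT arrays. On the arrays labelled knockout they summed to 24.8 and 28.7, so the groups overlapped. Of the 9, 3 lay lower without overlap, beside 17.7% of all tested genes. Their median difference was -0.30, or -0.02 without WT 2 and -0.74 without WT 1.

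The degrading enzymes were read clearly on every array. Maob (NM_172778), which encodes monoamine oxidase B, had signals of 1611 and 1296 on the WT arrays and 2551 and 1435 on the arrays labelled knockout. After scaling the WT arrays read 3.07 and 3.17, knockout 1 read 3.13 and knockout 2 read 3.17, so the arrays were almost level and the groups overlapped. The difference was 0.03, between means of 3.12 ± 0.07 and 3.15 ± 0.03 (SD, n = 2 each), and 0.01 without knockout 2. It was 0.22 with each array centred on its median, and that choice moves the median of all tested probes from -0.04 to 0.15.

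Maoa (NM_173740), which encodes monoamine oxidase A and has noradrenaline among its main substrates, varied more. The WT arrays read 0.56 and 1.23, knockout 1 read 1.03 and knockout 2 read 0.23. Knockout 2 was lowest and knockout 1 lay between the WT arrays, so the groups overlapped. The difference of -0.27, between 0.90 ± 0.47 and 0.63 ± 0.56 (SD, n = 2 each), did not reach the SD of either group. It was 0.13 without knockout 2 and 0.06 without WT 2, but -0.67 without knockout 1 and -0.60 without WT 1. Maoa and Maob are next to each other in the RefSeq gene order, and their levels followed different orders over the 4 arrays.

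The β1 receptor gene Adrb1 (NM_007419) had 2 probes. The brighter had signals of 183 and 159 on the WT arrays and 312 and 114 on the arrays labelled knockout, well above background throughout. Scaled, it read -0.07 and 0.14 on the WT arrays, 0.10 on knockout 1 and -0.49 on knockout 2, so knockout 1 lay between the WT arrays and knockout 2 below them. The difference was -0.23, and leaving out knockout 2 gave 0.06, knockout 1 -0.53 and WT 2 -0.13.

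The dimmer Adrb1 probe read -3.52 and -2.51 on the WT arrays and -4.47 and -3.06 on the arrays labelled knockout. It was not well above background on knockout 1, and its difference was -0.75, with 0.716 and 0.999 as the SDs of the groups. Single arrays decide its size: leaving out knockout 1 gave -0.04 and leaving out knockout 2 gave -1.45, while leaving out WT 1 gave -1.25 and WT 2 -0.24. On this probe WT 2 and knockout 2 were the higher array of their group, whereas on the brighter probe knockout 1 was higher than knockout 2. The probes therefore disagree on the order of the arrays labelled knockout, and both leave the groups overlapping.

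The α1A receptor gene Adra1a (NM_013461) also had 2 probes, each well above background on every array. The brighter read -1.66 and -1.53 on the WT arrays and -1.91 and -1.79 on the arrays labelled knockout, so the groups did not overlap. Its difference of -0.26, between -1.60 ± 0.09 and -1.85 ± 0.09 (SD, n = 2 each), was -0.32 without knockout 2 and -0.06 with each array centred on its median. The dimmer probe read -2.33 and -2.16 on the WT arrays, -2.60 on knockout 1 and -2.11 on knockout 2, and overlapped. Its difference was -0.11, or 0.08 with median centring. Leaving out knockout 1 gave 0.13 and knockout 2 -0.36, while leaving out WT 1 gave -0.20 and WT 2 -0.03.

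The α2A receptor gene Adra2a (NM_007417) had 3 probes that did not give the same picture. On the brightest the WT arrays read 0.37 and -0.30, knockout 1 read -0.43 and knockout 2 read -0.20. The second gave -0.44, -1.21, -1.12 and -1.13 in that order of arrays. Both had WT 1 as the highest array, with the other 3 arrays close together, and their differences were -0.35 and -0.30. Without WT 1 they were -0.01 and 0.08, without WT 2 -0.69 and -0.68, and without knockout 2 -0.47 and -0.29. Without knockout 1 the brightest had -0.23.

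The third Adra2a probe ran the other way. Its signals were 6.26 and 7.44 on the WT arrays, not well above background, and 23.0 and 10.6 on the arrays labelled knockout, well above background on both. The groups did not overlap, and the probe was at least 1.15-fold higher on the arrays labelled knockout. Its difference of 0.81 was 0.94 without knockout 2, 0.49 without WT 1 and -0.06 under normexp correction. The 2 brighter probes of the same gene had differences below 0.

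**Figure D3:**
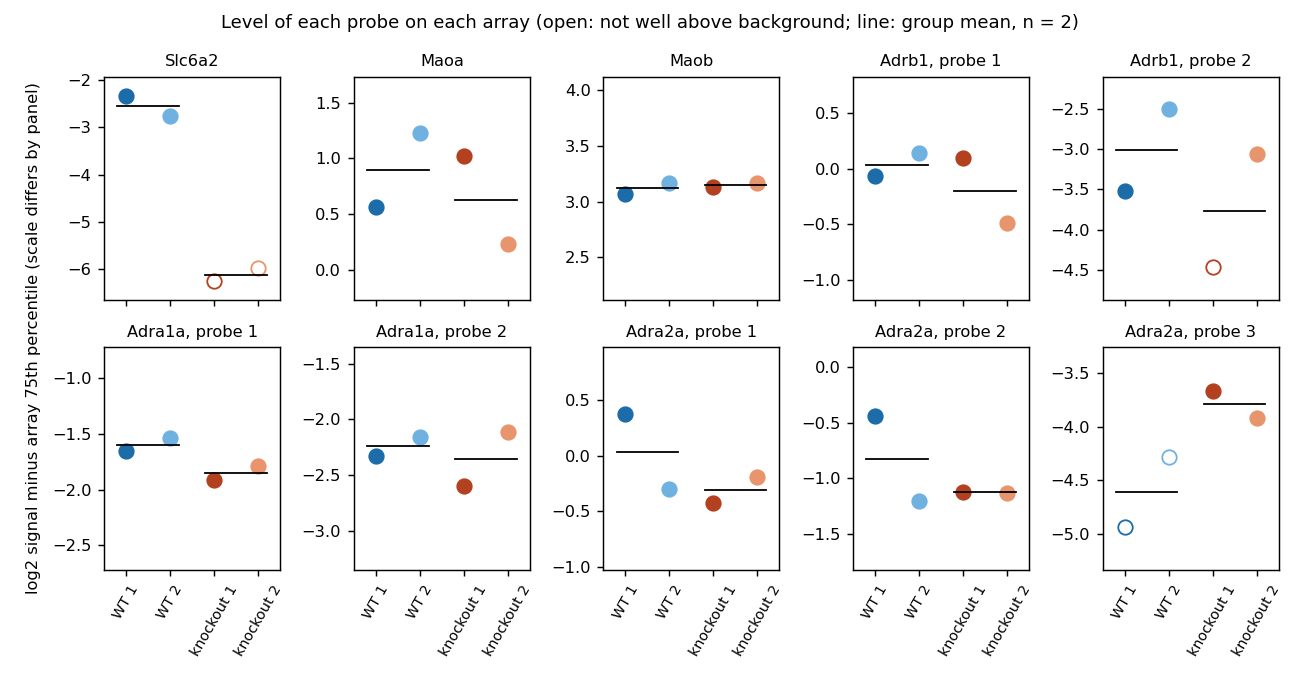
Level (log2 signal minus the array's 75th percentile, a different range in each panel) of each of the 10 probes on the 4 arrays, with the mean of each group as a line and open symbols where the spot was not well above background. The gap in Slc6a2, from -2.76 to -5.98 between the nearest arrays of the groups, is wider than in the other panels, in 7 of which the groups overlap.

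Technical spread bears on the smaller of these differences. Probes printed at 5 or more spots on an array had a median SD over spots, on the log2 scale, of 0.135 to 0.178 where all spots were well above background. Where none was, it was 0.423 to 0.531. The members are printed once per array, so their own spot spread is unknown.

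Limma 3.58.1, fitted over all 24186 tested probes with Benjamini-Hochberg adjustment, called 0 probes higher and 0 lower on the arrays labelled knockout at an adjusted p under 0.05, which is 0.0% in each direction. The lowest adjusted p among them was 0.932. With each array centred on its median it called 1 higher and 3 lower. Without adjustment, p was under 0.05 for 254 probes higher, or 1.05%, and 641 lower, or 2.65%. That balance turned with the setting: it was 527 higher and 250 lower with median centring, 914 and 814 without knockout 1, and 344 and 2460 without knockout 2. All 10 member probes passed the filter on dim probes, of which Slc6a2 and the dimmer Adrb1 probe passed through their WT arrays and the third Adra2a probe through the arrays labelled knockout. Over all tested probes both arrays labelled knockout lay above both WT arrays for 15.6% and below them for 18.9%. Among the members 1 of 10 probes lay above and 2 of 10 below, and nothing is read from those counts, since the genes were chosen on this contrast. A probe read on all 4 arrays has 2 residual degrees of freedom of its own, to which limma adds by pooling variance over all tested probes. The p-values measure only the spread between these samples.

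**Figure D4:**
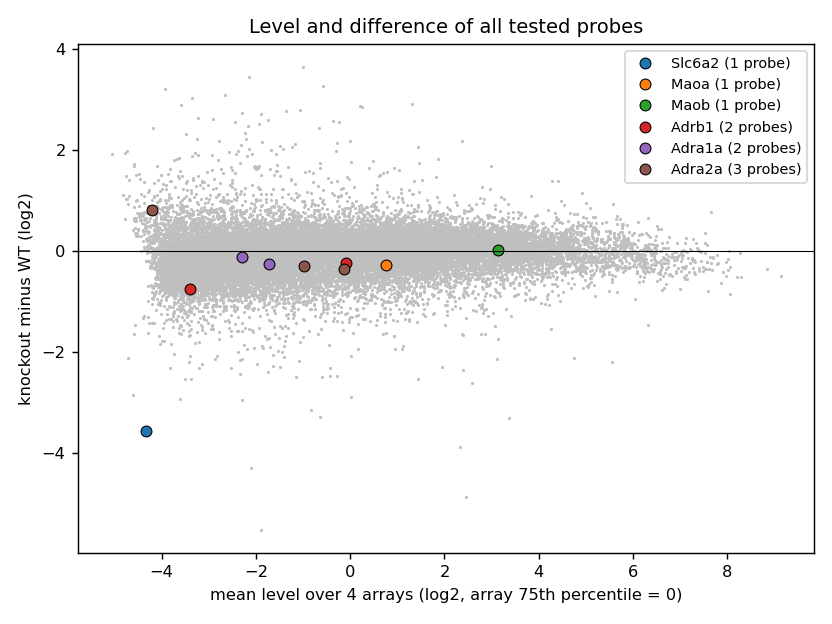
Difference between knockout and WT means (log2) against the mean level over the 4 arrays (log2, the array's 75th percentile is 0) for all 24186 tested probes in grey, with the member probes coloured by gene. Slc6a2 lies at -3.56 among dim probes, and the brighter members lie between -0.35 and 0.03.

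The wider catecholamine pathway was covered by 7 lists with 82 genes, of which 80 had a probe and 60 passed the filter on dim probes by their brightest probe. Limma called 0 of the 60 at an adjusted p under 0.05, with 0.936 as the lowest adjusted p. Without adjustment, p was under 0.05 for 1 gene higher and 0 lower, where over all tested genes the shares were 1.14% and 2.41%. For 13 of the 60 both arrays labelled knockout lay above both WT arrays and for 6 below, beside 17.8% and 17.7% of all genes. The median difference was 0.10, beside -0.01 over all 13205 tested genes.

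Other α receptors were dim. Adra1b, the α1B receptor gene, read -2.99 and -3.40 on the WT arrays and -3.90 and -3.40 on the arrays labelled knockout, a difference of -0.46 ± 0.31 (SE), with WT 2 and knockout 2 almost equal. Adra1d was well above background on 1 array of each group, and Adra2b and Adra2c on none.

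Synthesis of catecholamines was read in part. Of 9 synthesis and storage genes 4 were tested, and Th, Ddc and Dbh were well above background on no array. Qdpr, which recycles the cofactor of tyrosine hydroxylase, had a difference of 0.38 ± 0.25 (SE), and Cyb561, a vesicle cytochrome, -0.54 ± 0.35. Gch1, which starts synthesis of that cofactor, had 0.16 ± 0.29, or -0.40 on its second probe.

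The aldehydes that monoamine oxidases make are handled by further enzymes. Aldh2, a mitochondrial aldehyde dehydrogenase, read 2.65 and 3.14 on the WT arrays and 3.46 and 3.57 on the arrays labelled knockout, with no overlap, a difference of 0.62 ± 0.28 (SE, adjusted p = 0.936 by limma). Comtd1 and the sulphotransferase gene Sult1a1 had 0.43 ± 0.34 and 0.25 ± 0.36 and overlapped. Of 13 genes in this list, 8 were tested, 3 lay above without overlap and 0 below, beside the 17.8% and 17.7% over all genes. The median was 0.20, and 0.39 with median centring, 0.39 without WT 2, 0.35 without knockout 2, 0.11 without WT 1 and 0.12 without knockout 1. The organic cation transporter gene Slc22a3 and the dopamine transporter gene Slc6a3, alternative routes of uptake, were well above background on no array.

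Coupling of the receptors to G proteins was read on all arrays for each of 19 genes. Gna11, a Gq-class subunit, was the 1 pathway gene with an unadjusted p under 0.05 by limma, at a difference of 0.92 ± 0.34 (SE, adjusted p = 0.936), or 0.49 on its second probe. It read 0.37 and 1.103 on the WT arrays and 1.81 and 1.51 on the arrays labelled knockout. Grk6, a receptor kinase, had 0.72 ± 0.29, but its other probes gave 0.71 and -0.38. The adenylyl cyclase genes Adcy7 and Adcy5 had 0.60 ± 0.52 and 0.60 ± 0.85 and overlapped, Adcy7 with its highest reading, 1.90, on knockout 2, and Adcy5 with -0.03 on its second probe. Of the 19 genes 3 lay above without overlap and 1 below, beside 17.8% and 17.7% of all genes. The median was 0.14, and 0.33 with median centring, 0.21 under normexp, 0.08 without knockout 1 and 0.23 without WT 2.

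Effectors of cyclic AMP had a median of -0.12 over 12 tested genes, 0.08 with median centring, -0.02 under normexp, 0.33 without knockout 1, -0.18 without knockout 2 and 0.02 without WT 1. Crem, a transcription factor induced by cyclic AMP, had 0.53 ± 0.28 (SE) and its other 4 tested probes from 0.10 to 0.35. Rapgef3, an exchange factor activated by cyclic AMP, had -0.42 ± 0.30, the phosphodiesterase gene Pde4a -0.41 ± 0.38 and Prkaca, the catalytic subunit of protein kinase A, 0.36 ± 0.24.

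Genes of lipolysis, which β receptors drive in fat cells, had a median of 0.32 over 8 genes. It was 0.52 with median centring, 0.11 without WT 1 and 0.14 without knockout 1. The list mixes lipases with genes of other roles, so its median is no measure of lipolysis or of a response to β receptors. Both arrays labelled knockout lay above both WT arrays for 3 genes and below for 0, beside 17.8% and 17.7% of all genes. Lipe, hormone-sensitive lipase, read 2.11 and 2.68 against 2.99 and 2.68 and had a difference of 0.44 ± 0.31 (SE), with WT 2 and knockout 2 almost equal. Pnpla2, which takes the first step of triglyceride breakdown, had 0.53 ± 0.34, or -0.13 on its second probe. Plin1, which coats the lipid droplet, had 0.38 ± 0.32 and Fabp4, a fatty acid carrier, -0.42 ± 0.33. None passed the test over all probes. The 9 white adipocyte markers with a value on every array summed to 579 and 911 on the WT arrays and 684 and 700.5 on the arrays labelled knockout, WT 1 being lowest, and their part in these values was not tested.

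**Figure D5:**
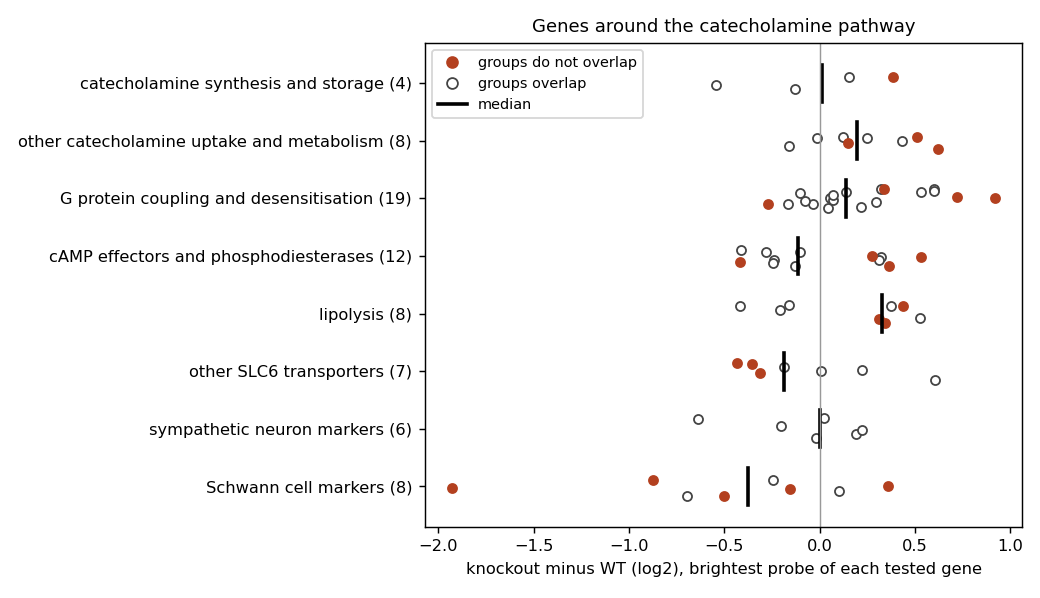
Difference between knockout and WT means (log2) of each tested gene, by its brightest probe, in 6 of the 7 pathway lists and in the neuron and Schwann cell lists, with the number of tested genes in brackets; filled points are genes whose groups do not overlap and bars are medians. The highest median of the pathway lists drawn is 0.32, over 8 lipolysis genes.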

How the data were processed

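The authors deposited 1 Agilent scanner file per sample. A description that speaks of EOC cells goes against the other labels and was left aside. Processed signal intensity was made by Agilent's Feature Extraction (11.5.1.1 is the version per the file headers, while the submitters' processing notes say 10.7.3.1), with background subtraction and detrending within each array. A log2 table was also deposited, ascribed to GeneSpring by the series' design text. It matched quantile-normalized log2 signals centred per probe (r from 0.999985 to 0.999997 over the arrays), which settled its scale, centring and direction, with column medians of -0.0180, 0.0183, 0.00626 and -0.00960.

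Control spots and outlier spots (35 to 73 per array, none of a member) were left out, spots of a probe averaged, and log2 signals set relative to each array's 75th percentile (144 to 291). RefSeq GRCm38.p6 accessions named 27816 of 41174 probes, and 1 gene was represented by its brightest probe. Tested probes were well above background on both arrays of a group. Limma 3.58.1 in R 4.3.3 compared the groups without covariates. The fit was also run on simulated data with the same spread for every probe. The real probes differ in spread, so that run checks the code and not the power in these data. For a bound, each dim reading was raised to the array's lowest well-above-background signal where below it, and group means were then compared. From each list up to 4 genes well above background on all 4 arrays are named by size of difference. The number of arrays limits precision. Members, lists and rules were chosen with earlier results of these data known. Some genes of these lists are counted and not reported by name here.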

Additional observations from a re-analysis of the deposited data

How the results depend on the processing

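Results were recomputed under 12 alternatives. Normexp used median in place of mean signals, since the files used here hold no mean signal, and that choice was made after seeing the data. Probes called at an adjusted p under 0.05 by limma numbered 0 in both directions except with each array centred on its median, which gave 1 higher (Rbbp4) and 3 lower (Scrg1, Csn1s2a and Slc6a2); the cause was not tested, and since Slc6a2 was chosen on this contrast its call supports nothing. The pathway count stayed at 0 under all 12. The Slc6a2 difference was -3.23 after quantile normalization, -3.23 in the authors' deposited table and -0.75 under normexp, and ran from -3.78 to -3.35 with 1 array left out, where the lone array of a group is assumed to vary like the others. It has no value where probes must be well above background on all 4 arrays. The third Adra2a probe changed sign under normexp, to -0.059. Of 70 other member values with all arrays kept, 65 moved by less than the replicate SD and 5 by more. Counted separately, and in part among those 65, 5 of the 70 values changed sign. Of 36 with 1 array left out, 6 changed sign. The fit with the replicate number as a block called 0 probes, and the Slc6a2 difference stayed at -3.56. Deviations of same-numbered arrays correlated at 0.06 across probes, and the labels give the numbers no meaning. Signal over background limits what is shown for Slc6a2 and the dimmer probes of Adrb1 and Adra2a.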

Other observations

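The other transporters of the SLC6 family, which carry amino acids, osmolytes and other transmitters, were read beside Slc6a2. Of 14 listed genes 13 had a probe and 7 were tested, and limma called 0 at an adjusted p under 0.05 and 0 at an unadjusted p under 0.05. Slc6a4, the serotonin transporter gene, read -2.67 and -2.54 on the WT arrays and -3.23 and -2.69 on the arrays labelled knockout, well above background on all. Slc6a6, the taurine transporter gene, read 3.32 and 3.35 against 2.93 and 3.11, or a difference of -0.31 ± 0.24 (SE) and of -0.20 on its second probe. Slc6a13, a GABA transporter gene, had 0.22 ± 0.43. The median of the 7 was -0.19, and 0.01 with each array centred on its median, -0.04 under normexp, -0.33 without WT 1 and -0.09 without knockout 1.

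Genes next to the members in the RefSeq order were also read. Beside Adra1a lies Stmn4, a relative of stathmin, which read 0.78 and 0.32 on the WT arrays and 0.10 and -0.03 on the arrays labelled knockout. Capns2, on one side of Slc6a2, was well above background on no array, and no probe matched Ces1a on the other.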
